A study of Mus musculus with 14 samples.

Results

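The genes described are 40 mouse genes of the lysosome, 25 for lysosomal enzymes and membrane proteins and 15 for subunits of the vacuolar ATPase. They were taken by symbol from a table of 22232 genes by a list that names genes of this compartment, chosen with earlier results of these data known, and all 40 had a row. RNA was measured in splenic B cells from 3 groups of mice. PU.1 KI mice (genotype PU.1[155-/155-], n = 5 libraries) carry on both copies of the PU.1 gene a mutated site for the microRNA miR-155. miR-155 KO mice (genotype miR-155[-/-], n = 5) lack miR-155, and wild-type mice (WT, n = 4) have neither allele. Cells of every group were taken by negative selection and cultured for 4 days with the bacterial product LPS at 5 µg/ml and the cytokine IL-4 at 10 ng/ml, so no unstimulated cells enter the comparisons. Both alleles are present in all cells of the mouse, while the labels name no age, sex or strain. The title of the series places miR-155 and its target PU.1 upstream of Pax5 in the terminal differentiation of B cells.

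Lysosomes are acidic organelles in which proteins, glycans and lipids are broken down by hydrolases. The vacuolar ATPase acidifies them: its V1 sector in the cytosol hydrolyses ATP and its V0 sector in the membrane carries protons. Many lysosomal genes share a promoter element called CLEAR, which is bound by the transcription factors TFEB and TFE3. In B cells the same compartment cuts antigen and the invariant chain for loading of MHC class II.

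Depth per library, recovered from the lowest values, was 31.4 to 47.1 M reads (M for mega) in PU.1 KI, 38.7 to 52.5 in miR-155 KO and 35.3 to 44.1 in WT. Values are RPKM, reads per kilobase of gene scaled to the library's reads, and 1 RPKM on a gene of 2 kb stood for 62.8 to 105.0 reads. The first principal component held 66.1% of the variance, with PU.1 KI between -13.1 and -9.8, miR-155 KO between 19.8 and 27.7 and WT between -18.2 and -15.4. On it library miR-155 KO 5 (19.8) and library WT 1 (-15.4) lay nearest to the other groups. On the second component (16.2%) WT 1 lay at 19.0, with the other WT libraries at 7.3 to 10.2, PU.1 KI at -16.6 to -1.9 and miR-155 KO at -3.8 to 4.0. The cells held B cell transcripts, with 8 markers summing to 1592 to 1850 RPKM in PU.1 KI, 1401 to 1516 in miR-155 KO and 1544 to 1782 in WT. Macrophages are rich in lysosomes. Of 12 macrophage markers 11 had a mean under 1 RPKM, C1qa was listed at 0 in every library, and the sum was 8.07 to 10.8 RPKM in PU.1 KI, 5.41 to 6.38 in miR-155 KO and 6.48 to 7.78 in WT, most of it Mpeg1. Emr1 and Itgam were higher in miR-155 KO than in WT without overlap, while in PU.1 KI Itgam alone was: Emr1 was at 0.137 to 0.393 RPKM in PU.1 KI, 0.643 to 0.835 in miR-155 KO and 0.167 to 0.227 in WT, and Itgam at 0.1 to 0.155 in PU.1 KI, 0.285 to 0.394 in miR-155 KO and 0.0427 to 0.0578 in WT. The 6 dendritic cell markers summed to 25.4 to 32.1 RPKM in PU.1 KI, 23.7 to 30.4 in miR-155 KO and 15.8 to 20.1 in WT, so they were higher in both mutants without overlap. Most of that sum was Flt3, while Itgax reached 0.0544 RPKM at most and Clec9a was listed at 0 in all mutant libraries. Zbtb46 was at 2.34 to 2.94 RPKM in PU.1 KI, 4.26 to 4.87 in miR-155 KO and 2.14 to 2.46 in WT. It lay above WT without overlap in miR-155 KO alone. The 6 plasma cell markers summed to 224 to 344 RPKM in PU.1 KI, 267 to 406 in miR-155 KO and 417 to 501 in WT. Most of that sum was Igj and Xbp1. Irf4 went the other way without overlap, at 45.5 to 58.3 RPKM in PU.1 KI, 55.6 to 63.8 in miR-155 KO and 35.1 to 39.8 in WT. Sdc1 overlapped among the groups. The part of these marker differences in the results was not tested, and in bulk RNA fewer cells of a type and less RNA per cell cannot be told apart.

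The edited gene was measured first. PU.1, listed as Sfpi1 (chromosome 2, 90922547 to 90955913, NCBIM37), had 21.1, 22.5, 25.6, 26 and 23.3 RPKM in PU.1 KI, 16.7, 17.1, 15.5, 15.8 and 18.3 in miR-155 KO, and 9.73, 12.5, 13.2 and 12.6 in WT. The 3 groups did not overlap, with PU.1 KI highest and WT lowest. The host gene of miR-155 was not analysed here, so the loss of miR-155 was not checked.

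Sequences are shown for the elements through which the best known regulators of these genes, and the microRNA of this study, would act. RefSeq promoter windows (GRCm38.p6, 250 bases before to 50 after the start site) were found for 31 of the 40 genes. The E-box CACGTG was present in 11 of these 31 genes (35.5%), against 8.09% of the 27025 genes with a window. The longer CLEAR core TCACGTGA, which contains the E-box, was present in 6 (19.4%), against 1.12%. The 27025 genes were not limited to those expressed here, while all 31 were expressed, so the shares compare unlike sets. Both motifs read the same on either strand, and a match is a description of the letters only. The 7 CLEAR cores follow in the direction of the gene, with the core in capitals, at these places: Atp6v0d1 chr8:105566053-105566076 (minus strand), Atp6v0e chr17:26676390-26676413 (plus), Atp6v1a chr16:44139376-44139399 (minus), Ctsa chr2:164833752-164833775 and chr2:164833769-164833792 (plus), Ctsd chr7:142387911-142387934 (minus) and Mcoln1 chr8:3500465-3500488 (plus).
Atp6v0d1: tactgcggTCACGTGAgacgcggt
Atp6v0e: cgcgccgaTCACGTGAgcctctgt
Atp6v1a: tttttaaaTCACGTGAtaggctta
Ctsa, first: gcaaactgTCACGTGAtgcagatg
Ctsa, second: gcagatgcTCACGTGAccagagct
Ctsd: cccgcgtcTCACGTGAcccgttga
Mcoln1: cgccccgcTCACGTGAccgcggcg

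The core began 4 bases before the start site in Atp6v0d1 (-4), at -13 and 4 in Ctsa, at 2 in Atp6v0e, at -46 in Mcoln1, at -99 in Ctsd and at -132 in Atp6v1a. In the data below, 5 of these 6 genes rose in miR-155 KO against WT, and Atp6v0e fell. Of all 40 genes 57.5% rose there, and of all genes tested 27.2%. The call of Ctsa was lost without WT 1. In PU.1 KI against WT Ctsd and Atp6v0d1 rose, both calls lost without WT 1, and the others were not called. There 37.5% of the 40 genes rose, and 23.7% of all genes tested. The letters GAGGAAGT, a core bound by PU.1, were present on either strand in 3 of the 31 genes (9.68%): Ctsc, Ctss and Gusb. The share was 3.69% of the same 27025 genes. Their matches, on the minus strand relative to the gene and with the motif's reverse complement in capitals, lie at chr7:88277926-88277949, chr3:95526776-95526799 and chr5:130003000-130003020.
Ctsc: actaactaACTTCCTCaggccacc
Ctss: gaaagttcACTTCCTCattgtgga
Gusb: ttcaagcgACTTCCTCtttct

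The microRNA pairs through its seed, bases 2 to 8, here in capitals (RefSeq, chr16:84714143-84714165, plus strand, GRCm38.p6).
mmu-miR-155-5p: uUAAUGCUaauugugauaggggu

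A match of 7 or 8 letters to this seed (AGCATTAA, AGCATTA or GCATTAA, the first containing the others) was found in the longest 3' UTR of 2 of the 40 genes (5%), against 13.6% of the 9402 tested genes with an annotated 3' UTR (GENCODE M21). Atp6v1d holds the full AGCATTAA at position 909 of 2744 bases (chr12:78842551-78842580, minus strand, GRCm38), and Atp6v1g1 holds GCATTAA at position 91 of 632 (chr4:63550188-63550217, plus strand), with the match in capitals.
Atp6v1d: ttggttatgagagtgacaccAGCATTAAcg
Atp6v1g1: gctggagttctgttctggaagGCATTAAat

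All 40 genes were expressed, with no value under 4.21 RPKM in any library, so all passed the filter on low values. Each was tested with limma on log2(RPKM + 0.5) in a fit over 9627 genes, and "rose" or "fell" means an adjusted p (Benjamini-Hochberg) under 0.05. In PU.1 KI against WT 15 of the 40 rose, 1 fell and 24 were not called, where 23.7% of all genes tested were higher and 4.03% lower. The median log2 fold change was 0.10 for the 40 genes and 0.08 for all genes. In miR-155 KO against WT 23 rose, 9 fell and 8 were not called, where 27.2% of all genes were higher and 35.3% lower, with medians of 0.17 and -0.05. Both comparisons use the same 4 WT libraries, so they are not independent of each other. In miR-155 KO against PU.1 KI 14 were higher, 12 lower and 14 not called, where 17.9% of all genes were higher and 46.4% lower, with medians of 0.04 and -0.13.

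The 2 classes are counted apart. Of all genes tested 23.7% rose and 4.03% fell in PU.1 KI against WT, and 27.2% and 35.3% in miR-155 KO against WT. In miR-155 KO against PU.1 KI 17.9% were higher and 46.4% lower. Of the 25 lysosomal enzymes and membrane proteins, 13 rose and 1 fell in PU.1 KI against WT, and 16 rose and 5 fell in miR-155 KO against WT. Of the 15 ATPase genes, 2 rose and none fell by limma in PU.1 KI, while 7 rose and 4 fell in miR-155 KO. At an unadjusted p under 0.05 the ATPase counts in PU.1 KI were 5 and 0. Between the mutants, miR-155 KO was higher in 10 and lower in 8 of the lysosomal genes, and higher in 4 and lower in 4 of the ATPase genes. The plot of fold changes by role shows these genes one by one.

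**Figure D1:**
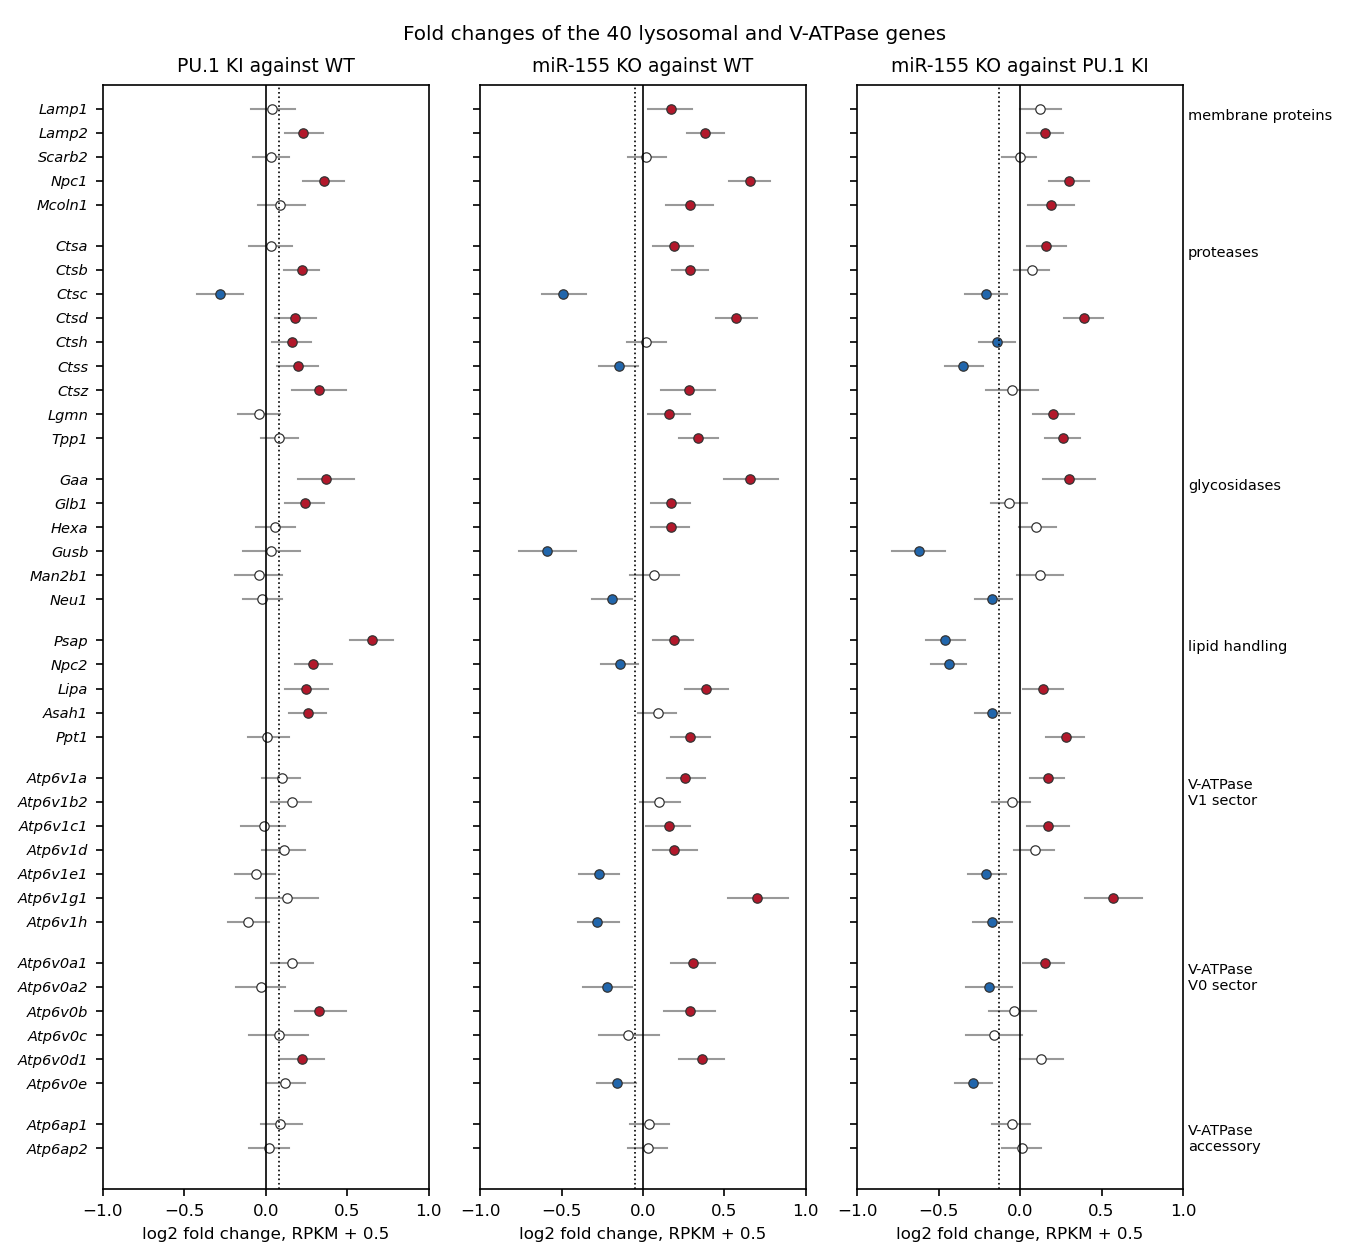
Log2 fold change (x axis, log2 of RPKM + 0.5) of the 40 genes (y axis, grouped by role) in PU.1 KI against WT, miR-155 KO against WT and miR-155 KO against PU.1 KI; points are limma estimates, bars 95% intervals, filled points passed the adjusted p of 0.05 (red higher, blue lower) and the dotted line is the median of all genes tested. Psap stands highest in PU.1 KI against WT at 0.65, and Atp6v1g1 at 0.70 and Gusb at -0.59 mark the ends of miR-155 KO against WT.

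**Figure D2:**
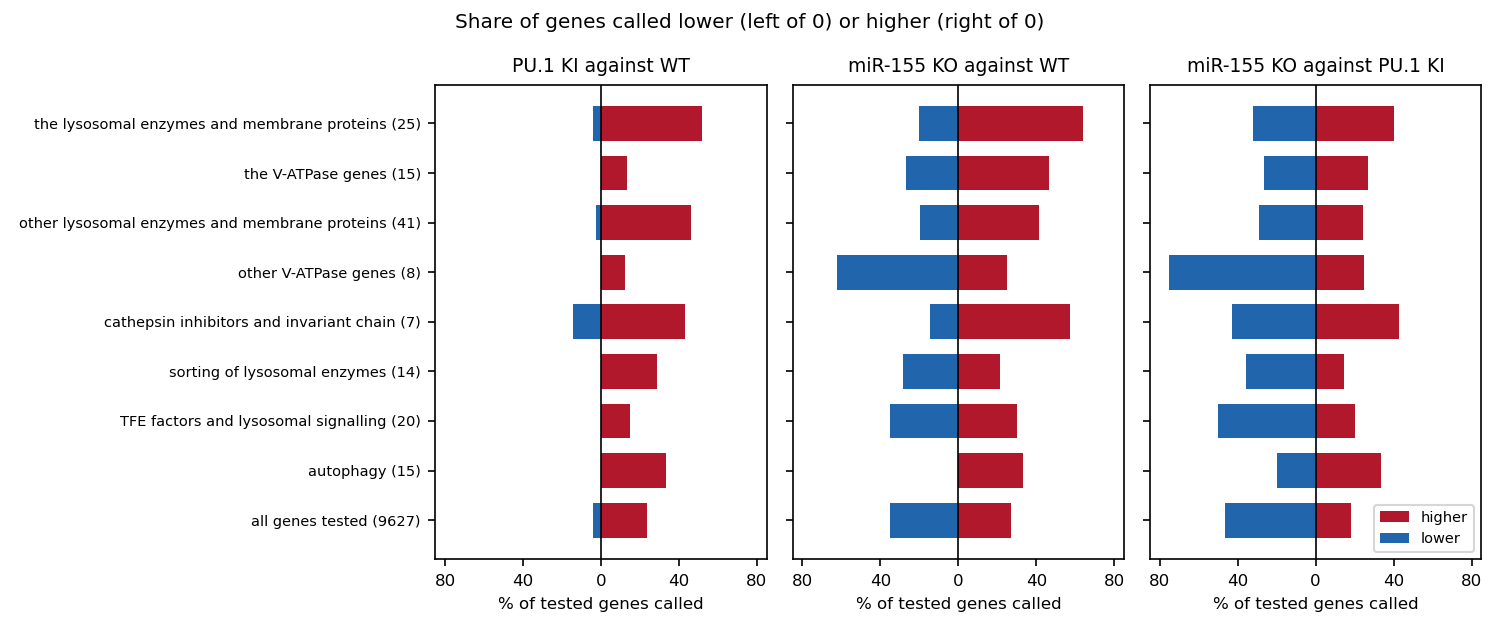
Percent of tested genes called higher (right of 0, red) or lower (left of 0, blue) on the x axis in each of 3 comparisons, for the 40 genes in 2 classes, 6 other pathway lists and all genes tested (y axis, number tested in brackets). Of the lysosomal genes 52% were higher in PU.1 KI and 64% in miR-155 KO against WT, and of the ATPase genes 13.3% and 46.7%, beside 23.7% and 27.2% of all genes.

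The split between higher and lower calls moved with the scaling of the libraries. As deposited, PU.1 KI stood above WT in 2279 of all genes and below it in 388. Scaled to the median of ratios, the libraries gave 1677 and 1518, and after quantile normalization 1520 and 1549. Among the 40 genes this comparison then had 14 calls upward and 6 downward by median of ratios, and 13 and 6 by quantiles. The median change of the 40 genes was 0.02 and 0.01 under these scalings and 0.10 as deposited, and that of all genes -0.01 under both and 0.08 as deposited. In miR-155 KO against PU.1 KI the median of all genes was 0.00 by median of ratios, -0.02 by quantiles and -0.13 as deposited. The 40 genes then had 23 calls upward and 6 downward by median of ratios, and 25 and 5 by quantiles. In miR-155 KO against WT the calls of the 40 genes were 27 upward and 8 downward by median of ratios, and 29 and 7 by quantiles, while those of all genes were 3278 and 3274, and 3002 and 3553.

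Of the 5 membrane proteins, 2 rose in PU.1 KI and 4 in miR-155 KO against WT, and none fell by limma in either, also at an unadjusted p under 0.05. Of all genes tested 23.7% and 27.2% rose, and 4.03% and 35.3% fell. Npc1 (chromosome 18, 12348202 to 12394909), which passes cholesterol out of the lysosome, had 6.48, 6.93, 7.02, 7.37 and 6.77 RPKM in PU.1 KI, 8.59, 8.11, 8.99, 8.95 and 8.51 in miR-155 KO, and 5.17, 4.96, 5.04 and 6.02 in WT. The groups formed 3 steps without overlap, with miR-155 KO at the top. Its log2 fold change against WT was 0.36 ± 0.06 (SE, limma adjusted p = 1.63e-04) in PU.1 KI and 0.66 ± 0.06 (adjusted p = 1.59e-08) in miR-155 KO. An opposite-strand gene overlaps 305 bases of Npc1 and reached 9.32 RPKM, and since no source used here gives the strand setting of the counting, reads of that stretch cannot be assigned. Lamp2, a major glycoprotein of the lysosomal membrane, averaged 24.4 ± 1.36 RPKM in PU.1 KI, 27.2 ± 1.02 in miR-155 KO and 20.7 ± 0.879 in WT (SD, n = 5, 5 and 4), and it too rose in both mutants, by 0.23 and 0.38 on the log2 scale. The calcium channel Mcoln1 rose by 0.29 ± 0.07 in miR-155 KO (limma adjusted p = 0.00156), and its change in PU.1 KI was 0.09 ± 0.07, called only without PU.1 KI 1 (0.16, adjusted p = 0.036).

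Lamp1, the most abundant of the membrane proteins, differed by small amounts. It had 62, 71.6, 71.5, 77.7 and 72.9 RPKM in PU.1 KI, 74.3, 75, 78.3, 78.4 and 81.2 in miR-155 KO, and 65.2, 67.3, 68 and 75.3 in WT. The groups overlapped, and library WT 4 reached into the range of miR-155 KO. The call in miR-155 KO against WT (log2 fold change 0.17, limma adjusted p = 0.0284) was lost without any 1 of miR-155 KO 3, 4 and 5 or WT 1, 2 and 3, with adjusted p between 0.0512 and 0.0791. Scarb2, the receptor that carries glucocerebrosidase to lysosomes, was called in neither mutant against WT, with changes of 0.03 (95% interval -0.08 to 0.14) in PU.1 KI and 0.02 (-0.09 to 0.14) in miR-155 KO.

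The 9 proteases divided between rises and falls. In PU.1 KI against WT 5 rose and 1 fell, where 23.7% of all genes tested rose and 4.03% fell. In miR-155 KO against WT 6 rose and 2 fell, where 27.2% of all genes rose and 35.3% fell. Ctsz, a carboxypeptidase and the most abundant protease here, had 150, 163, 180, 185 and 162 RPKM in PU.1 KI, 156, 166, 157, 148 and 184 in miR-155 KO, and 115, 140, 143 and 137 in WT. Every mutant library lay above every WT library, while the mutants overlapped each other. The log2 fold change was 0.33 ± 0.08 in PU.1 KI (limma adjusted p = 0.00433) and 0.28 ± 0.08 in miR-155 KO (adjusted p = 0.00503). Ctsb, a cysteine protease, also rose in both, by 0.22 and 0.29, and an opposite-strand gene, Fdft1, overlaps 769 of its bases with up to 36.2 RPKM.

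Ctsd, the main aspartic protease of lysosomes, had 30.7, 33.1, 34.7, 36.2 and 32.7 RPKM in PU.1 KI, 43.2, 44.3, 42.4, 43 and 47.2 in miR-155 KO, and 26.4, 29.8, 30.2 and 31.4 in WT. All miR-155 KO libraries lay above all others, and PU.1 KI overlapped WT. The rise in miR-155 KO was 0.57 ± 0.06 (limma adjusted p = 1.55e-07). The rise in PU.1 KI (0.18 ± 0.06, adjusted p = 0.0305) was lost without any 1 of PU.1 KI 3, PU.1 KI 4, WT 1 and WT 2, with adjusted p of 0.0738, 0.075, 0.138 and 0.0547. Of the 50-base stretches of the Ctsd transcript 36.6% recur in the annotated gene Gm49369, so its level is uncertain. Tpp1, a tripeptidyl peptidase, rose by 0.34 ± 0.06 in miR-155 KO, and its change in PU.1 KI was 0.08 ± 0.06.

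Ctsc, which activates the serine proteases of immune cells, fell in PU.1 KI and in miR-155 KO. It had 19, 20.2, 21.7, 21.4 and 21 RPKM in PU.1 KI, 16.2, 16.9, 17.9, 17.4 and 21.1 in miR-155 KO, and 24.4, 25.4, 25.4 and 25.4 in WT. WT lay above both mutants without overlap, and library miR-155 KO 5 stood among PU.1 KI. The log2 fold change against WT was -0.28 ± 0.07 in PU.1 KI (limma adjusted p = 0.00388) and -0.49 ± 0.07 in miR-155 KO (adjusted p = 3.56e-06).

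Ctss and Ctsh, proteases of antigen presentation in B cells, took another course. Ctss had 129, 138, 144, 149 and 139 RPKM in PU.1 KI, 104, 108, 111, 114 and 112 in miR-155 KO, and 113, 118, 127 and 131 in WT. PU.1 KI and miR-155 KO did not overlap, and WT lay between them, overlapping both. Ctss rose by 0.20 ± 0.06 in PU.1 KI (limma adjusted p = 0.0175) and fell by 0.15 on the log2 scale in miR-155 KO (adjusted p = 0.0308). The first call was lost without WT 1 (adjusted p = 0.0723) or WT 2 (0.0594) and with quantile normalization (0.053). The second was lost without miR-155 KO 1 (0.0739), miR-155 KO 2 (0.0589), WT 3 (0.0944) or WT 4 (0.106) and with quantile normalization (0.0589). Ctsh averaged 98.9 ± 4.51 RPKM in PU.1 KI, 89.7 ± 2.52 in miR-155 KO and 88.4 ± 6.48 in WT (SD, n = 5, 5 and 4). Its rise in PU.1 KI (0.16 ± 0.06, adjusted p = 0.0411) was lost without any single library of WT 1 to 3 or PU.1 KI 2 to 5 (adjusted p 0.0536 to 0.172), and with either scaling (0.176 and 0.389). By quantiles it was called higher in miR-155 KO than in WT (0.11, adjusted p = 0.0284).

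Ctsa and Lgmn rose in miR-155 KO by small amounts. Ctsa, which also protects neuraminidase and beta-galactosidase, changed by 0.19 ± 0.06 in miR-155 KO (limma adjusted p = 0.0115) and by 0.03 ± 0.06 in PU.1 KI. Lgmn, an asparaginyl endopeptidase, changed by 0.16 ± 0.06 in miR-155 KO (adjusted p = 0.0277) and by -0.04 ± 0.06 in PU.1 KI. The Ctsa call was lost without WT 1 (adjusted p = 0.0533), and the Lgmn call without WT 1 (0.0969), miR-155 KO 2 (0.0666) or miR-155 KO 4 (0.053). With median-of-ratios scaling or quantile normalization Lgmn was lower in PU.1 KI than in WT (-0.13, adjusted p = 0.0235, and -0.11, adjusted p = 0.0488). Neurl2 and Pltp lie on the opposite strand across 584 and 1515 bases of Ctsa, at up to 7.67 and 7.14 RPKM.

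**Figure D3:**
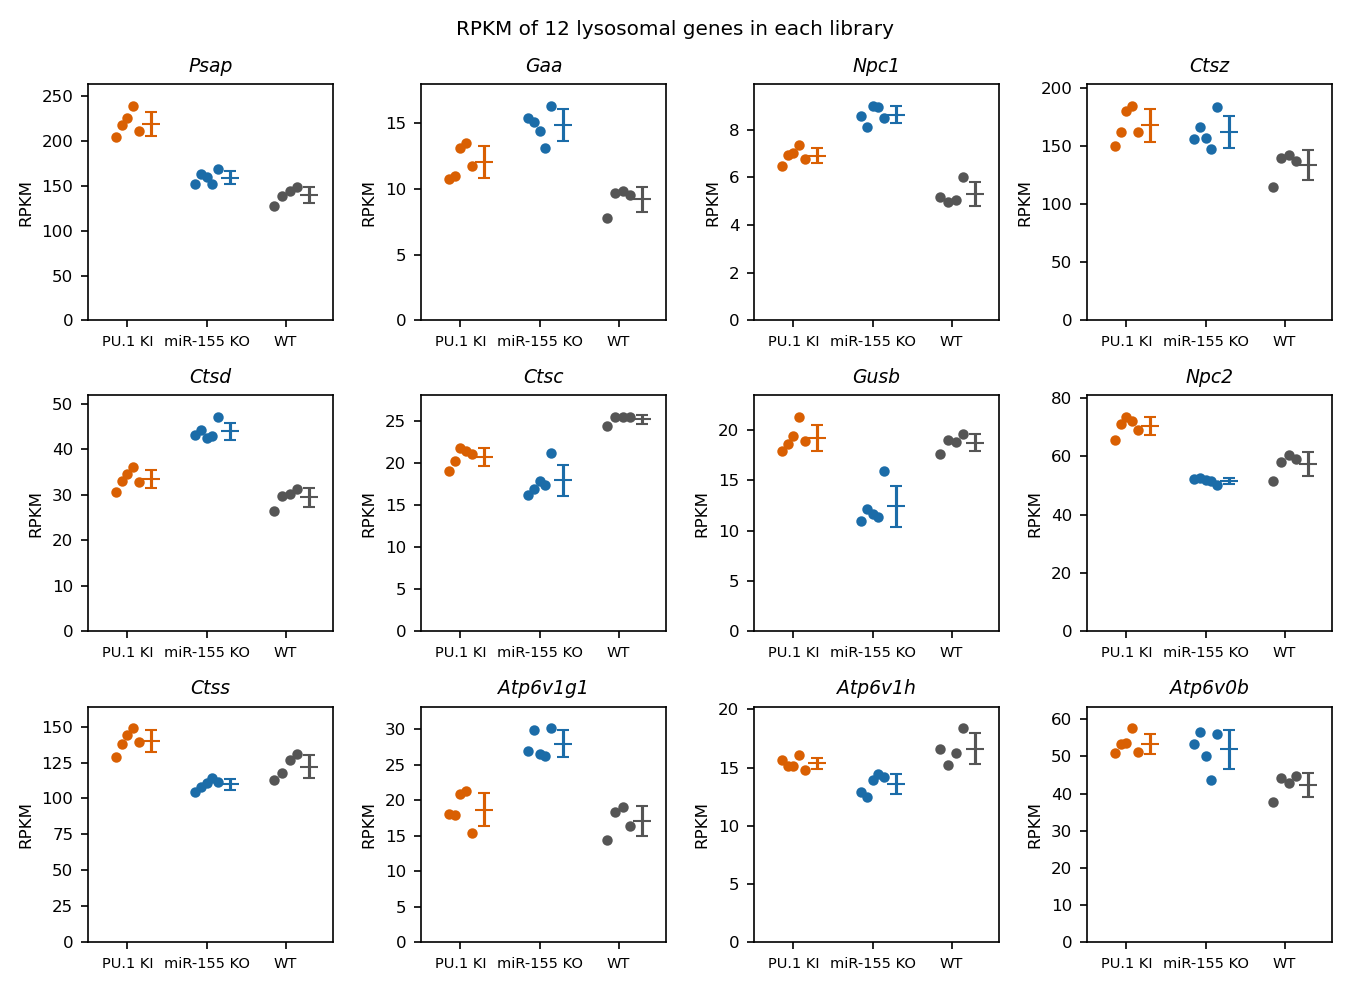
RPKM (y axis, linear from 0) of 12 genes in each library, in the order PU.1 KI, miR-155 KO and WT; dots are libraries and bars the mean ± SD (n = 5, 5 and 4). Psap is highest in PU.1 KI at 204 to 239, Gusb lowest in miR-155 KO at 11 to 15.9, and Npc1 forms 3 steps without overlap.

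The 6 glycan-cleaving enzymes held the largest fall. Gaa, the alpha-glucosidase that degrades glycogen, had 10.8, 11, 13.1, 13.5 and 11.7 RPKM in PU.1 KI, 15.4, 15.1, 14.4, 13.2 and 16.3 in miR-155 KO, and 7.8, 9.72, 9.83 and 9.53 in WT. Both mutants lay above WT without overlap, and they overlapped each other. Gaa rose by 0.37 ± 0.08 in PU.1 KI (limma adjusted p = 0.00202) and by 0.66 ± 0.08 in miR-155 KO (adjusted p = 8.16e-07). Gusb, the beta-glucuronidase, had 17.9, 18.6, 19.4, 21.3 and 18.9 RPKM in PU.1 KI, 11, 12.2, 11.7, 11.4 and 15.9 in miR-155 KO, and 17.6, 19, 18.8 and 19.6 in WT. All miR-155 KO libraries lay below all others, library 5 nearest to them, and PU.1 KI and WT overlapped. Its change was -0.59 ± 0.08 in miR-155 KO (adjusted p = 5.62e-06) and 0.03 ± 0.08 in PU.1 KI (adjusted p = 0.8).

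Glb1, the beta-galactosidase, rose in both mutants, by 0.24 ± 0.06 in PU.1 KI and 0.17 ± 0.06 in miR-155 KO, the second call lost without WT 1 (limma adjusted p = 0.0575). Hexa, the alpha subunit of beta-hexosaminidase, rose by 0.17 ± 0.06 in miR-155 KO, a call also lost without WT 1 (adjusted p = 0.0745), and changed by 0.06 ± 0.06 in PU.1 KI. The sialidase Neu1 averaged 12.1 ± 0.629 RPKM in PU.1 KI, 10.7 ± 0.547 in miR-155 KO and 12.3 ± 0.744 in WT (SD, n = 5, 5 and 4), and fell by 0.19 on the log2 scale in miR-155 KO (adjusted p = 0.00897). Man2b1, an alpha-mannosidase, had 19.3, 19.3, 21.3, 23.2 and 19.2 RPKM in PU.1 KI, 21.2, 22.6, 21, 21.1 and 25.3 in miR-155 KO, and 18.9, 21.7, 22.2 and 21.7 in WT. The 3 groups overlapped and Man2b1 was called in no comparison as deposited. With median-of-ratios scaling it was lower in PU.1 KI (-0.13, adjusted p = 0.0355) and higher in miR-155 KO (0.12, adjusted p = 0.0293) than in WT, and so was Neu1 lower in PU.1 KI (-0.10, adjusted p = 0.0253).

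Of the 5 genes for lipid breakdown and lipid binding, 4 rose in PU.1 KI against WT, where 23.7% of all genes tested rose. Psap, the precursor of the saposins that present sphingolipids to their hydrolases, had 204, 217, 225, 239 and 210 RPKM in PU.1 KI, 152, 163, 160, 152 and 168 in miR-155 KO, and 128, 139, 144 and 148 in WT. The groups did not overlap, with PU.1 KI far above the others. Its rise of 0.65 ± 0.06 in PU.1 KI (limma adjusted p = 2.17e-07), 1.57-fold, was the largest of the 40 genes there. The rise of 0.19 ± 0.06 in miR-155 KO (adjusted p = 0.0128) was lost without WT 1 (adjusted p = 0.0507).

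Npc2, the soluble cholesterol carrier that works with Npc1, had 65.6, 71.2, 73.4, 71.9 and 68.9 RPKM in PU.1 KI, 52.3, 52.5, 51.9, 51.5 and 50 in miR-155 KO, and 51.4, 58.1, 60.3 and 59.2 in WT. PU.1 KI lay above all other libraries, and WT 1 lay within the range of miR-155 KO. Npc2 rose by 0.29 ± 0.06 in PU.1 KI (limma adjusted p = 5.88e-04) and fell by 0.14 on the log2 scale in miR-155 KO (adjusted p = 0.0303). The fall was lost without miR-155 KO 4 (adjusted p = 0.0523), WT 2 (0.0738), WT 3 (0.112) or WT 4 (0.0782), and with median-of-ratios scaling (0.0594) or quantile normalization (0.742). Npc1 and Npc2 thus took opposite directions in miR-155 KO as deposited.

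Lipa, the acid lipase of cholesteryl esters, had 8.99, 9.04, 8.8, 9.87 and 9.41 RPKM in PU.1 KI, 9.39, 9.87, 10.4, 9.79 and 11.7 in miR-155 KO, and 7.54, 7.36, 7.46 and 8.28 in WT. Both mutants lay above WT, by 0.25 ± 0.06 (limma adjusted p = 0.00468) and 0.39 ± 0.06 (adjusted p = 2.08e-05) on the log2 scale. Asah1, the acid ceramidase, rose in PU.1 KI by 0.26 ± 0.05, and its change in miR-155 KO was 0.09 ± 0.05 (adjusted p = 0.175). With the libraries rescaled that last change passed the threshold, at 0.13 (adjusted p = 0.0115) by median of ratios and 0.17 (0.00334) by quantiles. Ppt1, a thioesterase that removes palmitate from proteins, had 5.96, 6.3, 6.98, 6.91 and 6.51 RPKM in PU.1 KI, 7.5, 7.75, 8.11, 8.21 and 8.48 in miR-155 KO, and 6.11, 6.27, 6.64 and 6.8 in WT. The miR-155 KO libraries lay above all others, and the change was 0.29 ± 0.06 in miR-155 KO (adjusted p = 2.22e-04) and 0.01 ± 0.06 in PU.1 KI. The opposite-strand gene Cap1, at up to 86.5 RPKM, shares 32 bases with Ppt1.

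**Figure D4:**
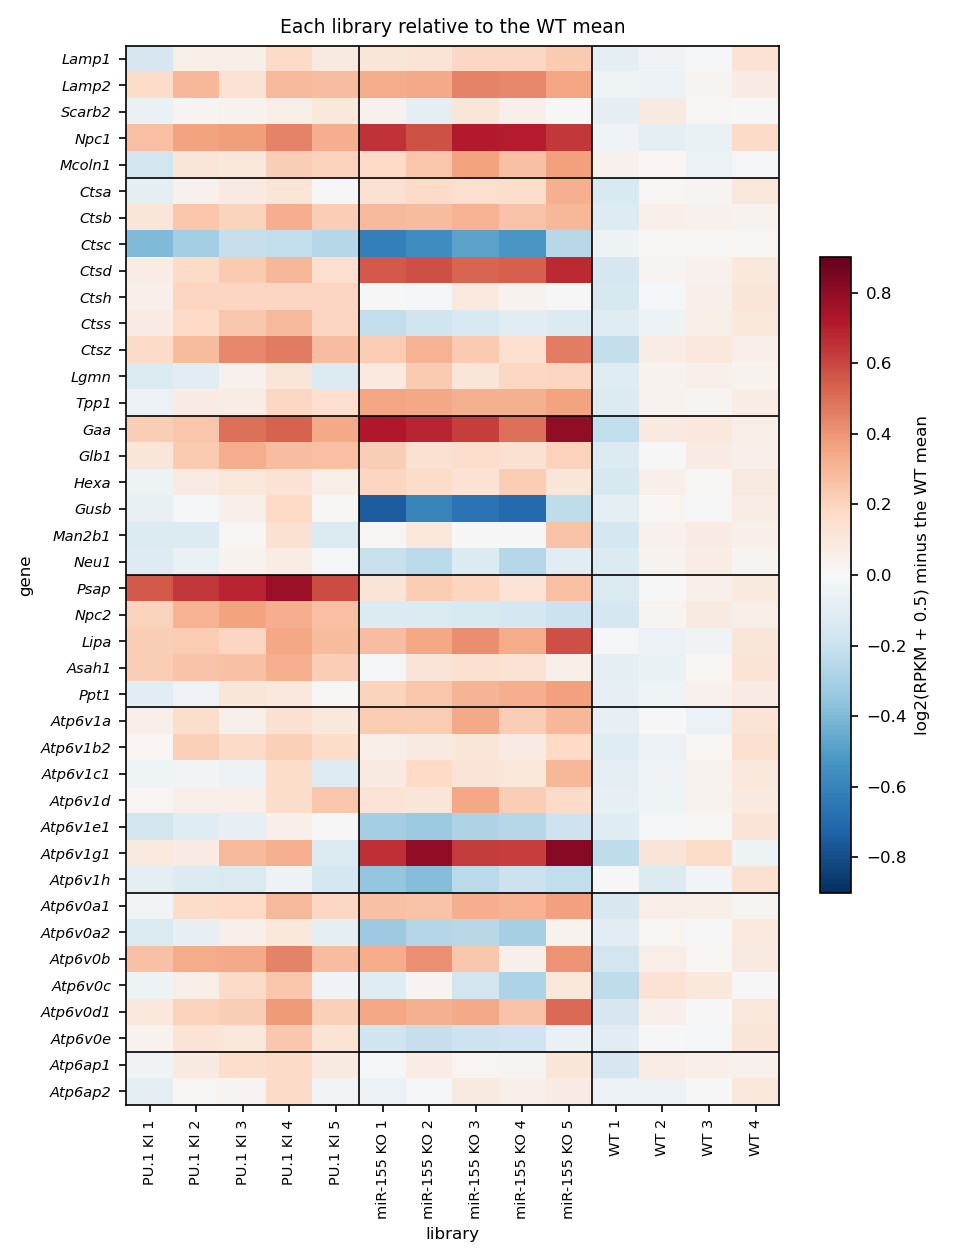
Level of each of the 40 genes (y axis, by role) in the 14 libraries (x axis, PU.1 KI, miR-155 KO, WT), as log2(RPKM + 0.5) minus the gene's WT mean, with red for higher and blue for lower. Gusb, Atp6v1h and Atp6v1e1 are low and Npc1, Ctsd and Atp6v1g1 high across miR-155 KO, while Psap and Npc2 are high across PU.1 KI.

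Of the 7 genes of the V1 sector, which turns ATP hydrolysis into rotation, none was called by limma in PU.1 KI against WT, and 1, Atp6v1b2, had an unadjusted p under 0.05 (0.16 ± 0.06, adjusted p = 0.0581). In miR-155 KO 4 rose and 2 fell. Of all genes tested 23.7% rose and 4.03% fell in PU.1 KI, and 27.2% and 35.3% in miR-155 KO. Atp6v1g1, a peripheral stalk subunit, had 18.1, 17.9, 20.9, 21.2 and 15.4 RPKM in PU.1 KI, 26.9, 29.8, 26.5, 26.3 and 30.2 in miR-155 KO, and 14.3, 18.4, 19 and 16.3 in WT. Every miR-155 KO library lay above every other, and PU.1 KI and WT overlapped. Its rise of 0.70 ± 0.09 in miR-155 KO (adjusted p = 1.61e-06), 1.63-fold, was the largest of the 40 genes there, and its change in PU.1 KI was 0.13 ± 0.09 (adjusted p = 0.306). Of its 50-base stretches 19.2% recur in the annotated gene Gm13453, so its level is uncertain. Atp6v1d, of the central stalk and the other gene with a seed match, rose by 0.19 ± 0.06 (adjusted p = 0.0116).

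Atp6v1a, the catalytic subunit, rose in miR-155 KO by 0.26 ± 0.05 (limma adjusted p = 3.45e-04) and changed by 0.10 ± 0.05 in PU.1 KI. Atp6v1b2, its non-catalytic partner in the ring, changed by 0.10 ± 0.06 in miR-155 KO (adjusted p = 0.146), and was called there without WT 4 (0.15, adjusted p = 0.0371) and with either scaling (0.15 and 0.20). It was also called in PU.1 KI against WT without PU.1 KI 1 (0.19, adjusted p = 0.0156) or WT 4 (0.21, adjusted p = 0.0155). Atp6v1c1, which regulates assembly of the sectors, rose in miR-155 KO by 0.16 ± 0.06 (adjusted p = 0.0395), a call lost without any 1 of miR-155 KO 2 and 5 and WT 1, 2 and 3 (adjusted p 0.0559 to 0.115).

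The falls were in Atp6v1h, a regulatory subunit, and Atp6v1e1, a stalk subunit. Atp6v1h had 15.7, 15.2, 15.1, 16.1 and 14.8 RPKM in PU.1 KI, 12.9, 12.5, 14, 14.5 and 14.2 in miR-155 KO, and 16.6, 15.2, 16.3 and 18.4 in WT. Atp6v1e1 had 23.5, 24.4, 25, 27.2 and 26.3 RPKM in PU.1 KI, 21.3, 20.8, 21.7, 22 and 23.1 in miR-155 KO, and 24.4, 26, 26.6 and 28.7 in WT. For both genes the miR-155 KO libraries lay below all others, while PU.1 KI and WT overlapped. Atp6v1h fell by 0.28 on the log2 scale in miR-155 KO (limma adjusted p = 5.26e-04) and Atp6v1e1 by 0.27 (adjusted p = 5.15e-04). Their changes in PU.1 KI, -0.11 ± 0.06 and -0.06 ± 0.06, passed the threshold with median-of-ratios scaling, at -0.20 (adjusted p = 0.0103) and -0.15 (adjusted p = 0.00169).

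In the V0 sector, which forms the proton path, 2 of 6 genes rose in PU.1 KI against WT, and 3 rose and 2 fell in miR-155 KO. The shares over all genes tested were 23.7% higher in PU.1 KI, and 27.2% higher and 35.3% lower in miR-155 KO. Atp6v0b, a subunit of the proton-carrying ring, had 51, 53.4, 53.6, 57.7 and 51.3 RPKM in PU.1 KI, 53.5, 56.5, 50, 43.6 and 56.1 in miR-155 KO, and 37.7, 44.2, 42.8 and 44.8 in WT. PU.1 KI lay above WT without overlap, and miR-155 KO 4 alone reached down into WT. The rise was 0.33 ± 0.07 in PU.1 KI (limma adjusted p = 0.00229) and 0.29 ± 0.07 in miR-155 KO (adjusted p = 0.00235). Atp6v0d1, which couples the ring to the stalk, rose by 0.22 ± 0.07 in PU.1 KI, a call lost without WT 1 (adjusted p = 0.0794), and by 0.36 ± 0.07 in miR-155 KO. Atp6v0a1, the proton channel subunit of the first a isoform, rose in miR-155 KO by 0.31 ± 0.06 (adjusted p = 3.25e-04). Its change of 0.16 ± 0.06 in PU.1 KI passed the threshold without PU.1 KI 1 (0.20, adjusted p = 0.0104).

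The second a isoform, Atp6v0a2, went the other way. It had 7.1, 7.41, 8.11, 8.4 and 7.33 RPKM in PU.1 KI, 6.16, 6.46, 6.5, 6.28 and 8 in miR-155 KO, and 7.28, 7.92, 7.81 and 8.38 in WT. The first 4 miR-155 KO libraries lay below all others and the fifth among them. The change was -0.22 ± 0.07 in miR-155 KO (limma adjusted p = 0.0114) and -0.03 ± 0.07 in PU.1 KI. Atp6v0e, a small membrane subunit, had 12.3, 13.1, 12.9, 14.2 and 13.1 RPKM in PU.1 KI, 10.5, 10.3, 10.5, 10.5 and 11.5 in miR-155 KO, and 11.1, 12, 11.9 and 13 in WT. PU.1 KI lay above miR-155 KO without overlap, and WT overlapped both. Atp6v0e fell by 0.16 on the log2 scale in miR-155 KO (adjusted p = 0.0186), a call lost without WT 4 (adjusted p = 0.0765), and its change of 0.12 ± 0.06 in PU.1 KI was called without WT 4 (adjusted p = 0.0492).

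The remaining ATPase genes were called in no comparison as deposited. Atp6v0c, the main subunit of the ring, averaged 46.1 ± 4.25 RPKM in PU.1 KI, 41.1 ± 4.36 in miR-155 KO and 43.7 ± 4.8 in WT (SD, n = 5, 5 and 4), and 12.2% of its 50-base stretches recur in other genes, mainly a pseudogene. Without miR-155 KO 5 it was lower in miR-155 KO than in PU.1 KI (-0.21, limma adjusted p = 0.0297). The accessory subunit Atp6ap1 had 25, 27.1, 28.5, 28.9 and 27.1 RPKM in PU.1 KI, 25.2, 26.8, 25.9, 26 and 27.7 in miR-155 KO, and 23, 26.8, 26.4 and 26.3 in WT. The groups overlapped throughout, and Atp6ap1 was called higher in miR-155 KO than in WT by median of ratios (0.09, adjusted p = 0.0293) and by quantiles (0.13, adjusted p = 0.00246). Atp6ap2, the other accessory subunit and the prorenin receptor, averaged 20.1 ± 1.43, 20.2 ± 0.832 and 19.8 ± 1.07 RPKM in PU.1 KI, miR-155 KO and WT. Its change against WT had 95% intervals of -0.10 to 0.14 in PU.1 KI and -0.09 to 0.15 in miR-155 KO, where it was called by quantiles (0.13, adjusted p = 0.00305).

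The mutants were then compared with each other in the same fit, in which the WT libraries enter the estimate of the spread but neither mean. Beside a median of -0.13 over all genes, the 5 largest rises in miR-155 KO over PU.1 KI were in Atp6v1g1 (0.57 ± 0.08), Ctsd (0.39 ± 0.06), Gaa (0.30 ± 0.08), Npc1 (0.30 ± 0.06) and Ppt1 (0.28 ± 0.05), each with a limma adjusted p of 0.00219 or less. The 5 largest falls were in Gusb (-0.62 ± 0.08), Psap (-0.46 ± 0.06), Npc2 (-0.44 ± 0.05), Ctss (-0.35 ± 0.06) and Atp6v0e (-0.29 ± 0.05), each with an adjusted p of 1.34e-04 or less. Tpp1 (0.26), Lgmn (0.20), Mcoln1 (0.19), Atp6v1a (0.17), Atp6v1c1 (0.17), Ctsa (0.16), Lamp2 (0.15), Atp6v0a1 (0.15) and Lipa (0.14) were also higher in miR-155 KO. Ctsc (-0.21), Atp6v1e1 (-0.21), Atp6v0a2 (-0.19), Neu1 (-0.17), Atp6v1h (-0.17), Asah1 (-0.17) and Ctsh (-0.14) were lower. The falls of these 7 genes were lost with quantile normalization (adjusted p 0.118 to 0.815), and Ctsh then stood at 0.06 and Asah1 at 0.01. By median of ratios 7 genes not called as deposited were called higher in miR-155 KO as they were by quantiles, Lamp1 (0.26), Ctsb (0.21), Hexa (0.24), Man2b1 (0.25), Atp6v1d (0.22), Atp6v0d1 (0.27) and Atp6ap2 (0.15). Scarb2 (0.12) and Atp6ap1 (0.08) were also called higher by median of ratios, their sign turned from that as deposited. By quantiles Atp6ap1 (0.14), Ctsz (0.12), Atp6v1b2 (0.13) and Atp6v0b (0.15) were called higher too, each with its sign turned from that as deposited.

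Calls between the mutants that rested on single libraries were those of small size. With the 2 mutants fitted alone the call of Lipa was lost (limma adjusted p = 0.0589). That of Lamp2 was lost without PU.1 KI 3 (limma adjusted p = 0.0568). That of Atp6v1c1 was lost without PU.1 KI 5 (0.0564) or miR-155 KO 5 (0.0504), and that of Ctsa without PU.1 KI 1 (0.0547) or miR-155 KO 5 (0.0536). Atp6v0a2 lost its call without PU.1 KI 3 (0.051), PU.1 KI 4 (0.0575) or miR-155 KO 1 (0.0559). Atp6v0a1 lost it without any 1 of PU.1 KI 1 to 3 and miR-155 KO 3 to 5 (0.0517 to 0.101), Ctsh without any 1 of PU.1 KI 2 to 5 and miR-155 KO 1 and 2 (0.0547 to 0.0675), and Lipa without any 1 of PU.1 KI 1, 2, 3 and 5 and miR-155 KO 2, 3 and 5 (0.0504 to 0.132). In the other direction, Lamp1 (0.16, adjusted p = 0.0316), Man2b1 (0.16, adjusted p = 0.0404) and Atp6v0d1 (0.17, adjusted p = 0.023) were called higher in miR-155 KO without PU.1 KI 4.

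Other genes of the pathway were counted from lists of textbook members. Of 17 further ATPase genes 8 were tested, and in miR-155 KO against WT 2 rose and 5 fell, while in PU.1 KI 1 rose and none fell by limma. In miR-155 KO this was 25% and 62.5% of those tested, beside 27.2% and 35.3% of all genes. In PU.1 KI it was 12.5% higher, beside 23.7% higher and 4.03% lower over all genes. In each pathway list with no gene lower by limma, none was lower at an unadjusted p under 0.05. Atp6v1f, of the V1 central stalk, averaged 68.5 ± 5.67 RPKM in PU.1 KI, 46.8 ± 3.38 in miR-155 KO and 60.6 ± 4.72 in WT (SD, n = 5, 5 and 4). Its change was -0.37 ± 0.07 in miR-155 KO against WT (adjusted p = 1.99e-04) and 0.17 ± 0.07 in PU.1 KI (adjusted p = 0.0781), the second called without PU.1 KI 1 (0.22, adjusted p = 0.0236). The assembly factors Ccdc115 and Tmem199 fell in miR-155 KO as well, by 0.69 and 0.38 on the log2 scale. Rogdi, a homologue of a RAVE assembly subunit, rose in PU.1 KI by 0.56 ± 0.07.

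Of 41 further lysosomal genes tested, 19 rose and 1 fell in PU.1 KI, and 17 rose and 8 fell in miR-155 KO. In PU.1 KI this was 46.3% and 2.44%, beside 23.7% and 4.03% of all genes tested. In miR-155 KO it was 41.5% and 19.5%, beside 27.2% and 35.3%. Cd68, a sialomucin known as a macrophage marker, averaged 10.9 ± 0.578 RPKM in PU.1 KI, 5.08 ± 0.267 in miR-155 KO and 6.8 ± 0.475 in WT (SD, n = 5, 5 and 4). It rose by 0.64 ± 0.06 in PU.1 KI (limma adjusted p = 1.41e-07) and fell by 0.39 on the log2 scale in miR-155 KO (adjusted p = 1.37e-05). The tetraspanin Cd63 was at 2.6 ± 0.315 RPKM in miR-155 KO against 0.258 ± 0.0943 in WT, a rise of 2.04 ± 0.09 that the added 0.5 RPKM makes smaller. Cd63 averaged under 1 RPKM in WT and PU.1 KI, so it passed the filter only through miR-155 KO, where it was high. In PU.1 KI Cd63 was at 0.404 ± 0.0812 RPKM, and its call there (0.26, adjusted p = 0.0455) was lost without any single library except PU.1 KI 4 or WT 2 and with either scaling. Laptm4b, a lysosomal transmembrane protein, rose by 0.34 ± 0.09 in PU.1 KI and 1.21 ± 0.09 in miR-155 KO, the first call lost with quantile normalization (0.16, adjusted p = 0.263). It averaged 0.924 RPKM in PU.1 KI, 2.12 in miR-155 KO and 0.623 in WT. It too passed the filter through miR-155 KO, where it was high. The counts of rises given above for these lysosomal genes include both Cd63 and Laptm4b.

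The factors that bind the CLEAR element were named for their role after their values were seen, outside the rule for naming genes. Tfeb, listed as Tcfeb, averaged 7.65 ± 1.46 RPKM in PU.1 KI, 5.21 ± 1.14 in miR-155 KO and 6.91 ± 1.78 in WT (SD, n = 5, 5 and 4), with changes against WT of 0.15 ± 0.16 (limma adjusted p = 0.529) and -0.37 ± 0.16 (adjusted p = 0.0532). The second was called without WT 1 (-0.49, adjusted p = 0.014), WT 4 (-0.44, 0.0446), miR-155 KO 2 (-0.44, 0.0301) or miR-155 KO 5 (-0.42, 0.0348). Tfe3, listed as Tcfe3, averaged 8.38 ± 0.619, 7.45 ± 0.415 and 6.75 ± 0.359 RPKM in PU.1 KI, miR-155 KO and WT, with changes of 0.29 ± 0.06 (adjusted p = 0.00132) and 0.13 ± 0.06 (adjusted p = 0.0651), the second called with median-of-ratios scaling (0.18, adjusted p = 3.25e-04) and quantile normalization (0.16, adjusted p = 0.00103). Between the mutants Tfeb was lower in miR-155 KO than in PU.1 KI (-0.52 ± 0.15, limma adjusted p = 0.00594). Tfe3 was lower there too (-0.16 ± 0.06, adjusted p = 0.0207), a call lost with either scaling (adjusted p 0.476 and 0.219). The Tfe3 call was also lost without PU.1 KI 4, miR-155 KO 3 or miR-155 KO 4. Of all genes tested 46.4% were lower in that comparison. Of the 20 tested genes of these factors and of nutrient signalling on the lysosome, 3 rose and none fell by limma in PU.1 KI against WT. In miR-155 KO against WT 6 rose and 7 fell. The rises in PU.1 KI were 15% of this list, below the 23.7% of all genes tested. In miR-155 KO 30% rose and 35% fell, near the 27.2% and 35.3% of all genes. Rragb, a GTPase that recruits mTORC1, averaged 1.32 ± 0.193 RPKM in PU.1 KI, 0.21 ± 0.034 in miR-155 KO and 1.05 ± 0.0991 in WT, a fall of 1.13 on the log2 scale in miR-155 KO, whose log2 fold change was -1.89 with 0.1 and -0.76 with 1 RPKM added in place of 0.5. Rragb passed the filter through PU.1 KI and WT, since it averaged under 1 RPKM in miR-155 KO. It is among the rises in PU.1 KI and the falls in miR-155 KO counted above. Its call in PU.1 KI (0.22, adjusted p = 0.0409) was lost without any 1 of PU.1 KI 2 and 4 and WT 1, 2 and 3 (adjusted p 0.07 to 0.119) and with either scaling. Lamtor4 and Lamtor5, subunits of the complex that anchors these GTPases, fell in miR-155 KO by 0.54 and 0.35, while Rheb, the activator of mTORC1, rose by 0.54 ± 0.07.

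Of 14 tested genes that sort enzymes to lysosomes, 4 rose and none fell by limma in PU.1 KI, and 3 rose and 4 fell in miR-155 KO. The rises in PU.1 KI were 28.6% of this list, beside 23.7% of all genes tested. In miR-155 KO 21.4% rose and 28.6% fell, beside 27.2% and 35.3% of all genes. The phosphotransferase subunits Gnptab and Gnptg, which make the mannose 6-phosphate tag, fell in miR-155 KO by 0.34 and 0.70 on the log2 scale, and Vps29 of the retromer fell by 0.42. Igf2r, the large mannose 6-phosphate receptor, rose by 0.26 ± 0.06 in PU.1 KI and 0.52 ± 0.06 in miR-155 KO (limma adjusted p = 0.00289 and 3.58e-07). With median-of-ratios scaling Gnptab, Gnptg and Vps29 were also lower in PU.1 KI than in WT (-0.20, -0.15 and -0.14, adjusted p 0.00274 to 0.0373), and Rheb likewise (-0.21, adjusted p = 0.00105).

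Of the 7 genes for protease inhibitors (cystatins and serpins) and the invariant chain, 3 rose and 1 fell in PU.1 KI, and 4 rose and 1 fell in miR-155 KO. Of all genes tested 23.7% rose and 4.03% fell in PU.1 KI, and 27.2% and 35.3% in miR-155 KO. The rises in miR-155 KO include Serpinb6a, named for its low level, outside the rule for naming genes. It averaged 0.946 RPKM in PU.1 KI, 1.39 in miR-155 KO and 0.97 in WT. It thus passed the filter mainly through miR-155 KO, where it was high. Cst7, the cystatin F that inhibits Ctsc among others, averaged 14.8 ± 1.23 RPKM in PU.1 KI, 51.2 ± 3.52 in miR-155 KO and 17.2 ± 0.514 in WT (SD, n = 5, 5 and 4). It rose by 1.55 ± 0.07 in miR-155 KO (limma adjusted p = 2.71e-13) and fell by 0.22 in PU.1 KI (adjusted p = 0.0183). Cst3, Serpinb1a and Serpinb9 rose in PU.1 KI, by 0.43, 0.56 and 0.82. Serpinb1a fell by 0.27 in miR-155 KO, and the call of Serpinb9 there (0.18, adjusted p = 0.0358) was lost without any single library except miR-155 KO 2 or WT 4 (adjusted p 0.0536 to 0.103). Of 15 autophagy genes 5 rose in each mutant and none fell by limma. These 33.3% stood beside 23.7% of all genes in PU.1 KI and 27.2% in miR-155 KO, where 35.3% of all genes fell. Gabarapl1 and the receptor Sqstm1 rose in miR-155 KO, by 0.68 ± 0.06 and 0.47 ± 0.06, and the receptor Optn rose in both mutants, by 0.40 ± 0.07 in PU.1 KI and 0.61 ± 0.07 in miR-155 KO. Wipi1 rose by 0.36 ± 0.10 in PU.1 KI and 0.53 ± 0.10 in miR-155 KO, the first call lost with quantile normalization (0.22, adjusted p = 0.129). Its mean was 0.817 RPKM in WT, so it passed the filter through the mutants, where it was high. The counts of autophagy genes that rose include it in both mutants.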

How the data were processed

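RNA of 14 libraries was analysed from the RPKM values that the authors deposited, 1 column per library. Per the submitters' processing notes, Trim Galore, TopHat and the build NCBIM37 were used, with no versions. The sources used here do not give the read counter, the annotation or the strand setting. RPKM divides by gene length and library total, so a change in abundant genes moves all others. Depth was recovered from the 250 lowest values above 0 of genes spanning under 2.5 kb, of which 67.2% to 72.8% came out within 0.01 of whole reads, too few for a count test. Repeated rows (63 of 22295) were kept.

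The filter kept 9627 rows that reached 1 RPKM in 4 libraries or more. They were tested on the scale log2(RPKM + 0.5) in R 4.3.3 with limma 3.58.1, with 1 mean per genotype, trended moderation, two-sided, Benjamini-Hochberg adjustment, threshold 0.05. Fold changes on that scale understate low genes; ± is SE for them and SD for levels, and 95% intervals are per gene without adjustment. The replicates are biological per the design text. Replicate numbers are not said to mark a shared animal or day, so the libraries were not paired. Scripts were tested on simulated data. Promoter and miRNA sequences are RefSeq's (GRCm38.p6) and 3' UTRs GENCODE's; coordinates of genes are NCBIM37.

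The 40 genes and the lists were chosen with earlier results of these data known. Values in every library are given for PU.1, for the 5 largest called changes in each direction of each comparison, and for the most abundant gene and that with the smallest adjusted p in each role; of other lists up to 4 genes with the smallest adjusted p are named, except 1 that is not reported here. Alternatives were other pseudocounts, filters, scalings, moderation, 2 genotypes at a time, a replicate block and omitted libraries.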

Additional observations from a re-analysis of the deposited data

Results flagged for a closer look

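In 12 of 123 groups of libraries (40 genes and PU.1 in 3 genotypes), 1 library lay further from the others than Dixon's 95% critical value allows; chance gives about 1 in 20 groups. Library WT 1 was low in 6 of them. Ctsb was at 16.3 RPKM in WT 1, with the other WT libraries at 18.2 to 18.3. Lgmn was at 37.1 (others 40.9 to 41.5), Gaa at 7.8 (9.53 to 9.83), Man2b1 at 18.9 (21.7 to 22.2), Atp6ap1 at 23 (26.3 to 26.8) and Ctsc at 24.4 (25.4 to 25.4). WT 1 also had the lowest summed RPKM of all libraries, 192433.

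Library miR-155 KO 5 was high in 4 genes. Ctsa was at 27 RPKM there, with the other miR-155 KO libraries at 23.7 to 24.4. Gusb was at 15.9 (others 11 to 12.2), Atp6v0a2 at 8 (6.16 to 6.5) and Atp6v0e at 11.5 (10.3 to 10.5). Library PU.1 KI 1 was low in Ctsh, at 90.8 RPKM with the others at 101 to 101, and in Atp6v1b2, at 18.5 (20.6 to 21.4).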

How the results depend on the processing

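Library scaling moved 3 counts of the 40 genes by over 1.5 times. In PU.1 KI against WT 6 genes were lower with median-of-ratios scaling and 6 with quantile normalization, against 1 as deposited. In miR-155 KO against PU.1 KI 23 and 25 were higher under these scalings, against 14, and 6 and 5 lower, against 12. In that comparison signs were compared only for genes called as deposited or after the scaling. With median-of-ratios scaling the sign turned for Scarb2 (0.12) and Atp6ap1 (0.08). With quantile normalization it turned for Ctsh (0.06), Ctsz (0.12), Asah1 (0.01), Atp6v1b2 (0.13), Atp6v0b (0.15) and Atp6ap1 (0.14). Sign changes of genes called in neither setting were not counted, and the scaling moves all genes by construction. Leaving out 1 library gave 11 to 18 higher and 1 to 1 lower in PU.1 KI against WT, 16 to 24 and 6 to 9 in miR-155 KO against WT, and 10 to 17 and 10 to 13 in miR-155 KO against PU.1 KI. Leaving out both WT 1 and miR-155 KO 5, chosen after seeing the data, gave 12 higher and 1 lower, 17 and 10, and 14 and 13. Of 3871 single gene values recomputed, 3651 kept their side of the threshold, and a sign where called. Of the rest 141 lost a call, 71 gained one and 8, called before or after, had the other sign.

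Deviations of same-numbered libraries correlated at -0.39 to 0.47, no comparison had every pair above 0.1, and not every library correlated best with its own number. Between PU.1 KI and WT the pairs 1 to 4 were all positive, at 0.22, 0.04, 0.36 and 0.12. Library 1 had the lowest summed RPKM of each group, 201532 in PU.1 KI, 193499 in miR-155 KO and 192433 in WT. Whether libraries of the same number shared a batch was not tested. With a replicate block 17 genes were higher and 1 lower in PU.1 KI against WT, 23 and 9 in miR-155 KO against WT, and 16 and 12 in miR-155 KO against PU.1 KI. Over all genes the block gave 2389 and 519 in PU.1 KI against WT, beside 2279 and 388 without it. It gave 2639 and 3687 in miR-155 KO against WT, beside 2616 and 3401. Between the mutants it gave 1811 and 4650, beside 1725 and 4467.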
